A study of Mus musculus with 12 samples.

Results

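Genes of cellular iron handling were followed through a comparison of rebastinib-treated and control mouse cells: the ferritin genes Ftl1 and Fth1, the uptake and transport genes Tfrc, Slc11a1, Slc11a2 and Slc40a1, the haem oxygenase gene Hmox1, the iron sensor genes Ireb2 and Aco1, and the ferritin receptor gene Ncoa4. They were chosen by name, with earlier results of these data known, and all 10 were found among the 55421 gene identifiers of the count table. Messenger RNA was sequenced from 12 libraries of 2 female mouse cell lines, with 3 libraries in each of 4 groups. Rebastinib, a small-molecule kinase inhibitor directed at the angiopoietin receptor TIE2, was given at 5 nM for 6 h. The groups were PMJ2R cells with rebastinib, PMJ2R control cells, ID8 cells with rebastinib and ID8 control cells, and the labels name no vehicle for the controls. PMJ2R is a macrophage line from a peritoneal lavage of C57BL6J, and all of its libraries, controls included, carry the v-raf and v-myc oncogenes. ID8 is a tumour line of ovarian epithelium, labelled C57BL6J wildtype. Each tissue is thus represented by a cultured line. Nothing in the labels shows that replicates came from separate cultures, so the tests below see only library-to-library spread, which may be technical.

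Cells take up iron bound to transferrin through the transferrin receptor, move it out of the endosome through a divalent metal transporter, store it inside ferritin shells of heavy and light chains, and release it through ferroportin. Haem oxygenase frees iron from haem, and NCOA4 carries ferritin to the lysosome when stored iron is needed. The iron regulatory proteins IRP1 and IRP2 bind hairpins in messenger RNA called iron-responsive elements when iron is scarce. Bound to the 5′ untranslated region (UTR) of a ferritin messenger they block its translation, and bound to the 3′ UTR of the transferrin receptor messenger they protect it from decay. Macrophages recycle the iron of red blood cells and are known for ferroportin and haem oxygenase. Ferritin and Hmox1 are also transcribed under NRF2 and repressed by BACH1.

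These hairpins are the sequences through which the control acts, so those found in the 10 messengers are shown here before the values. A search of annotated UTRs for the hairpin's conserved letters, C, any 5 bases, CAGTGN and 5 bases that pair with the first 5 (a G with a T allowed), found matches in 4 of the genes. Only the transcribed strand was searched. Capitals mark the unpaired C of the stem and the loop letters, and each sequence is read 5′ to 3′ on the transcribed strand with positions on GRCm38.
Fth1, 5′ UTR, chr19:9982731-9982760, plus strand: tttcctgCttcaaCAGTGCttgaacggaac
Ftl1, 5′ UTR, chr7:45459779-45459808, minus strand: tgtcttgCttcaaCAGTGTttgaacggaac
Slc40a1, 5′ UTR, chr1:45925465-45925494, minus strand: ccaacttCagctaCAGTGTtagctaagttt
Tfrc, 3′ UTR, chr16:32631218-32631247, plus strand: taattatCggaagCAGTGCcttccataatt
Tfrc, 3′ UTR, chr16:32631597-32631626, plus strand: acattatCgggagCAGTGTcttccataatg
Tfrc, 3′ UTR, chr16:32631662-32631691, plus strand: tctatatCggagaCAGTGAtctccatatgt
Tfrc, 3′ UTR, chr16:32631709-32631738, plus strand: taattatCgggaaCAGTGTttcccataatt
The ferritin and ferroportin matches lie before the coding region, and Tfrc holds 4 matches after it. Hairpins that depart from these letters would not be found by this search. The same letters occurred in the 5′ UTR of 31 of 21901 coding genes (0.142%) and in the 3′ UTR of 129 (0.589%). The ferroportin match is in 1 of 4 coding transcripts of Slc40a1, the Ftl1 match in 1 of 2 of its gene, the Fth1 match in 4 of 5, and the Tfrc matches in 1 of 3. Slc11a2, which is known to have an iron-responsive form, gave no match to these letters in its annotated transcripts.

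Library totals ran from 19025504 to 27070556 counts. CPM values (counts scaled to a common library size) use the scaled sizes of each line's own comparison (TMM scaling, which assumes that most genes do not change), and fold changes are rebastinib over control on the log2 scale unless another direction is named. A gene is said to have risen or fallen where its edgeR quasi-likelihood test gave a Benjamini-Hochberg adjusted p under 0.05. Most genes passed this in either line, 83.7% of 14010 in PMJ2R and 80.4% of 14829 in ID8. Rebastinib libraries gave more of their counts to mitochondrially encoded genes (4.54% to 5.41% against 2.80% to 3.99% in control libraries), to ribosomal protein genes (7.59% to 10.6% against 4.66% to 5.75%) and to genes overlapping ribosomal RNA (1.05% to 5.99% against 0.0927% to 0.355%). The last share differed between the treated lines, at 5.63% to 5.99% in PMJ2R with rebastinib and 1.05% to 1.60% in ID8 with rebastinib. Genes with a short transcript also stood higher with rebastinib. Genes whose longest coding transcript is under 1000 bases had a median log2 fold change of 0.57 in PMJ2R and 0.81 in ID8, and those over 4000 bases of -0.25 and -0.39. The part of these shifts in the iron gene results was not tested beyond the removal of length and GC trends given below. Sums over cell type markers are CPM from library totals without TMM scaling, so they show the identity of the lines and are no measure of change. The 12 macrophage markers summed to 3100 to 3160 CPM in PMJ2R with rebastinib and 2930 to 3030 CPM in PMJ2R control, and to at most 17.6 CPM in ID8 with rebastinib and 12.6 CPM in ID8 control, where Adgre1, Spi1, Itgam, Lyz2, Ctss and Laptm5 were at 0 in every ID8 library. By the edgeR test with TMM scaling, 9 of these 12 rose in PMJ2R and 3 fell, where 40.1% of all tested genes rose and 43.6% fell. Their median log2 fold change was 0.52, against -0.05 over all tested genes. The 12 ovarian and mesothelial markers summed to at most 0.543 CPM in PMJ2R, and to 4400 to 4480 CPM in ID8 with rebastinib and 5800 to 6060 CPM in ID8 control. By the edgeR test with TMM scaling, 5 of these 12 rose in ID8 and 5 fell, where 38.4% of all tested genes rose and 42.0% fell. Their median log2 fold change was -0.13, against -0.07 over all tested genes. The 6 fibroblast markers summed to at most 0.494 CPM in PMJ2R, and to 120 to 161 CPM in ID8 with rebastinib and 239 to 256 CPM in ID8 control. In both ID8 groups only 3 of these 6 had a mean over 1 CPM, and Thy1 and Lum were at 0. Of the 6 erythroid markers, the 5 globin and glycophorin genes were at 0 in both rebastinib groups and in ID8 control, and the sum of all 6 stayed at or below 1.32 CPM in all 12 libraries.

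With rebastinib, 9 of the 10 iron genes rose in PMJ2R and 1, Slc11a1, fell, where 40.1% of all tested genes rose and 43.6% fell. With library totals alone, 6 of the 10 rose there and 3 fell. In ID8 9 of the 10 could be tested, of which 4 rose (Ftl1, Hmox1, Fth1 and Aco1), 2 fell (Tfrc and Ireb2) and 3 did not pass (Slc40a1, Slc11a2 and Ncoa4). Among all genes tested in ID8, 38.4% rose and 42.0% fell, so the number of iron genes called there is not set apart from the rest. Rises of at least 2-fold were found for 4 iron genes in PMJ2R and 3 in ID8, and 15.6% of all tested genes had one in either line. The median log2 fold change of the iron genes was 0.81 in PMJ2R and 0.16 in ID8, against -0.05 and -0.07 over all tested genes. Ftl1, Fth1 and Hmox1 rose at least 2-fold in both lines, and Ncoa4 did so in PMJ2R.

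**Figure D1:**
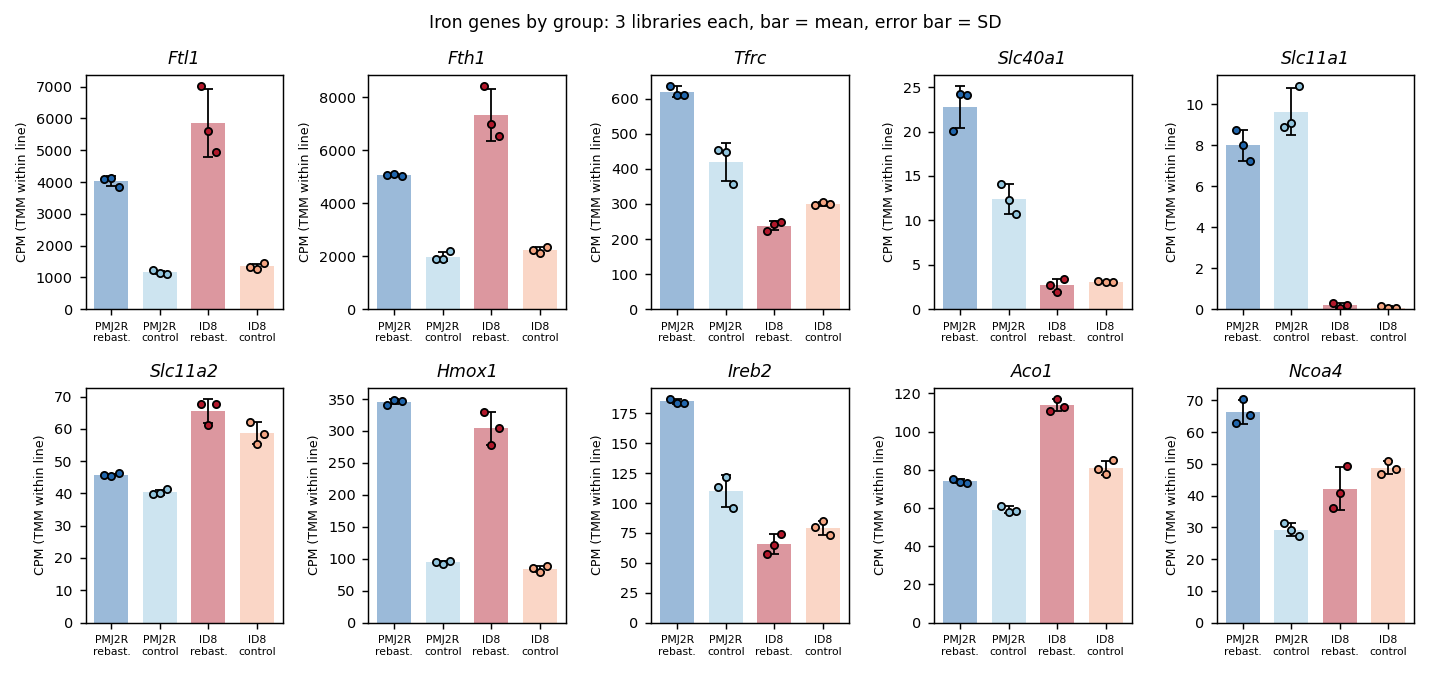
Level of each of the 10 iron genes in every library, in CPM scaled within each line, on axes that start at 0, by group (PMJ2R rebastinib, PMJ2R control, ID8 rebastinib, ID8 control); points are libraries, bars the means of 3 and error bars the SD. Ftl1, Fth1 and Hmox1 with rebastinib lie above control in both lines without overlap, and Slc11a1 in ID8 is at most 0.283 CPM.

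Ftl1 encodes the light chain of ferritin, which helps the iron core form inside the shell. It stood at 4110, 4130 and 3840 CPM in PMJ2R with rebastinib, against 1220, 1130 and 1120 CPM in PMJ2R control. In ID8 it stood at 7030, 5600 and 4940 CPM with rebastinib, against 1330, 1270 and 1440 CPM in control. Every rebastinib library was above every control library of its line. The rise was 1.80 in PMJ2R (SE 0.0518, edgeR adjusted p = 1.8e-15, a 3.47-fold change) and 2.12 in ID8 (SE 0.118, adjusted p = 9.9e-10, 4.34-fold). Of all tested genes, 4.70% in PMJ2R and 2.59% in ID8 had a larger log2 fold change. Among genes with transcripts under 1000 bases, where Ftl1 with 968 bases belongs, these shares were 9.88% and 10.1%. Ftl1 (chromosome 7, 45457944 to 45459884, minus strand, GRCm38) shares 355 exon bases with Gm10252, an unconfirmed gene model on the opposite strand. Gm10252 held 123266 counts over the PMJ2R rebastinib libraries and 66351 over the PMJ2R control libraries, and 196292 and 68638 in ID8, against 193653, 105666, 325483 and 106321 counts of Ftl1 in the same groups. Whether counting used strand is not given in the sources used here, and without it the reads of the 2 genes cannot be told apart. Summed with Gm10252, an alternative chosen after the data were seen, Ftl1 rose by 1.80 in PMJ2R and 2.08 in ID8.

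Fth1 encodes the heavy chain, which carries the ferroxidase activity that oxidises iron for storage. It stood at 5060, 5110 and 5020 CPM in PMJ2R with rebastinib, against 1880, 1910 and 2190 CPM in PMJ2R control. The ID8 values were 8440, 7000 and 6560 CPM with rebastinib, against 2250, 2140 and 2340 CPM in control. Groups did not overlap in either line. Fth1 (chromosome 19, 9980598 to 9985098, plus strand) rose by 1.34 in PMJ2R (SE 0.0570, edgeR adjusted p = 2.16e-13, 2.54-fold) and by 1.71 in ID8 (SE 0.101, adjusted p = 1.71e-09, 3.27-fold). Pseudogene rows named after either chain were small: Ftl1 held 99.2% to 99.9% of the counts of rows whose symbol begins with Ftl, and Fth1 held all but a rounding share of those beginning with Fth. How reads that match several copies were treated is not given in the sources used here.

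The ratio of heavy to light chain messenger with rebastinib lay below control in both lines. Per length, in TPM (computed here from the counts and the merged exon length), the Fth1 to Ftl1 ratio was 0.475, 0.477 and 0.505 in PMJ2R with rebastinib, against 0.593, 0.653 and 0.754 in PMJ2R control. In ID8 the ratio was 0.464, 0.483 and 0.514 with rebastinib, against 0.650, 0.649 and 0.627 in control. All rebastinib ratios were below all control ratios of the same line. The ratio is taken within a library, so scaling between libraries cannot move it, and no test was run on it. Trends with length can move it. With length and GC trends removed, the rises of Ftl1 and Fth1 were 1.69 and 1.46 in PMJ2R and 1.73 and 1.68 in ID8, closer together than without that correction. Which chain was the more abundant per length depends on the length used. With the longest coding transcript in place of merged exons, the mean ratios were 0.815 in PMJ2R with rebastinib and 1.12 in PMJ2R control, and 0.817 in ID8 with rebastinib and 1.08 in ID8 control.

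Hmox1 encodes the inducible haem oxygenase, which opens the haem ring and releases iron, biliverdin and carbon monoxide. It stood at 341, 349 and 347 CPM in PMJ2R with rebastinib, against 95.5, 91.2 and 95.6 CPM in PMJ2R control. In ID8 it stood at 329, 278 and 305 CPM with rebastinib, against 84.7, 79.1 and 88.1 CPM in control. The rebastinib and control libraries were far apart in either line, and PMJ2R libraries with rebastinib lay close to each other. Hmox1 (chromosome 8, 75093621 to 75100589, plus strand) rose by 1.88 in PMJ2R (SE 0.0448, edgeR adjusted p = 2.02e-16, 3.67-fold) and by 1.86 in ID8 (SE 0.0788, adjusted p = 8.05e-11, 3.62-fold). Of genes with transcripts of 1000 to 2000 bases, the class of Hmox1, 4.24% in PMJ2R and 3.98% in ID8 had a larger log2 fold change. The constitutive haem oxygenase gene Hmox2 had 40.2 ± 3.12 CPM in PMJ2R with rebastinib and 40.1 ± 2.77 CPM in PMJ2R control (SD, n = 3) and did not pass the test (log2 fold change 0.00, SE 0.0710). In ID8 it rose to 60.7 ± 3.80 CPM with rebastinib, against 38.2 ± 0.658 CPM in control (0.67).

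Tfrc encodes the transferrin receptor, the main route of iron uptake in dividing cells, and its messenger gave the 4 hairpin matches shown above. It stood at 637, 611 and 611 CPM in PMJ2R with rebastinib, against 454, 449 and 358 CPM in PMJ2R control. The ID8 values were 223, 242 and 248 CPM with rebastinib, against 296, 306 and 299 CPM in control. In PMJ2R all rebastinib libraries were above all controls, and in ID8 all were below. Tfrc (chromosome 16, 32608920 to 32632794, plus strand) rose by 0.56 in PMJ2R (SE 0.0758, edgeR adjusted p = 1.51e-05), a rise that was lost with libraries scaled by their totals alone (0.00), and fell by 0.34 in ID8 (SE 0.0668, adjusted p = 0.000334). The second transferrin receptor gene Tfr2, a sensor of transferrin best known from liver, had at most 0.0772 CPM in any library and was not tested.

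Slc11a2 encodes DMT1, the transporter that moves ferrous iron out of the endosome. It stood at 45.7, 45.5 and 46.2 CPM in PMJ2R with rebastinib, against 39.9, 40.1 and 41.3 CPM in PMJ2R control, without overlap. In ID8 it stood at 67.7, 61.1 and 67.6 CPM with rebastinib, against 62.1, 55.3 and 58.4 CPM in control, and these ranges overlap. It rose by 0.18 in PMJ2R (SE 0.0571, edgeR adjusted p = 0.00729), a direction that turned with library totals alone (-0.38) and with no expression filter (-0.03). The log2 fold change in ID8 did not pass the test (0.16, SE 0.0760, adjusted p = 0.0658). It was called higher with RLE scaling (0.20), with DESeq2 (0.20), with length and GC trends removed (0.34) and without ID8 rebastinib library 2 (0.22). With library totals alone it was called lower in ID8 (-0.27, SE 0.0823, edgeR adjusted p = 0.0078). Slc11a2 shares 402 exon bases with Gm5475 on the opposite strand, which held 28 to 60 counts per group.

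Slc11a1 encodes NRAMP1, a metal transporter of the phagosome membrane found in phagocytes. It stood at 8.75, 7.99 and 7.23 CPM in PMJ2R with rebastinib, against 8.88, 9.09 and 10.9 CPM in PMJ2R control, and all rebastinib libraries were below all controls by a small margin. It held 11 counts over the 3 ID8 rebastinib libraries and 6 over the 3 ID8 control libraries, too few for the test. It fell by 0.27 in PMJ2R (SE 0.119, edgeR adjusted p = 0.0432), and this call did not hold with RLE scaling (-0.23), with DESeq2 (-0.23) or with length and GC trends removed, where the value was 0.05. Leaving out the PMJ2R rebastinib library 2 or 3, or the PMJ2R control library 3, also ended the call, with values between -0.26 and -0.18.

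Slc40a1 encodes ferroportin, the exporter of iron from the cell. It stood at 20.1, 24.2 and 24.1 CPM in PMJ2R with rebastinib, against 14.1, 12.3 and 10.7 CPM in PMJ2R control, without overlap. The ID8 values were 2.72, 1.91 and 3.44 CPM with rebastinib, against 3.21, 3.05 and 3.04 CPM in control, and the groups overlap. Slc40a1 (chromosome 1, 45908068 to 45926523, minus strand) rose by 0.88 in PMJ2R (SE 0.105, edgeR adjusted p = 3.68e-07) and did not pass the test in ID8 (-0.18, SE 0.207, adjusted p = 0.432). The ID8 value rests on 156 counts over the rebastinib libraries and 244 over the control libraries, and with library totals alone it was called lower (-0.61, SE 0.214, edgeR adjusted p = 0.0186).

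Ireb2 encodes IRP2, the iron regulatory protein that is degraded when iron is plentiful. It stood at 187, 184 and 184 CPM in PMJ2R with rebastinib, against 113, 122 and 95.7 CPM in PMJ2R control, without overlap. In ID8 it stood at 57.5, 65.1 and 74.2 CPM with rebastinib, against 79.7, 85.2 and 73.5 CPM in control, and the highest rebastinib library exceeded the lowest control. Ireb2 rose by 0.74 in PMJ2R (SE 0.0688, edgeR adjusted p = 4.9e-08). It fell by 0.27 in ID8 (SE 0.0927, adjusted p = 0.0140), and that call was lost with length and GC trends removed (-0.09) and without ID8 rebastinib library 1 (-0.18), rebastinib library 2 (-0.25) or control library 2 (-0.23).

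Aco1 encodes IRP1, which is a cytosolic aconitase when it holds an iron-sulfur cluster and binds the hairpins when it does not. It stood at 75.1, 73.5 and 73.1 CPM in PMJ2R with rebastinib, against 61.0, 58.0 and 58.3 CPM in PMJ2R control. The ID8 values were 111, 117 and 113 CPM with rebastinib, against 80.2, 77.7 and 85.2 CPM in control. Neither line's groups overlap. Aco1 rose by 0.32 in PMJ2R (SE 0.0517, edgeR adjusted p = 1.59e-05) and by 0.49 in ID8 (SE 0.0687, adjusted p = 1.34e-05). Library totals alone turned the PMJ2R value (-0.24) and ended the ID8 call (0.05). With no expression filter, the PMJ2R value was 0.12 and the call was lost.

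The ratio of the sensor messengers with rebastinib lay below control in PMJ2R and above it in ID8. Per length, the Aco1 to Ireb2 ratio was 0.845, 0.844 and 0.837 in PMJ2R with rebastinib, against 1.14, 1.00 and 1.28 in PMJ2R control. In ID8 it was 4.07, 3.79 and 3.20 with rebastinib, against 2.12, 1.92 and 2.44 in control. As a ratio within each library it does not depend on scaling, and it was not tested. With length and GC trends removed, Aco1 and Ireb2 had log2 fold changes of 0.59 and 0.61 in PMJ2R, which leaves no gap between them, and of 0.59 and -0.09 in ID8. Fbxl5, whose protein is the iron-binding ubiquitin ligase subunit that marks IRP2 for degradation, rose in both lines. It had 127 ± 2.49 CPM in PMJ2R with rebastinib and 37.3 ± 2.37 CPM in PMJ2R control (SD, n = 3; log2 fold change 1.76), and 99.3 ± 10.2 CPM in ID8 with rebastinib and 48.2 ± 3.28 CPM in ID8 control (1.04).

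Ncoa4 encodes the receptor that delivers ferritin to the lysosome. It stood at 63.0, 70.4 and 65.3 CPM in PMJ2R with rebastinib, against 31.5, 29.2 and 27.3 CPM in PMJ2R control. The ID8 values were 36.2, 40.9 and 49.4 CPM with rebastinib, against 46.9, 51.0 and 48.3 CPM in control. The groups lie far apart in PMJ2R and overlap in ID8. Ncoa4 (chromosome 14, 32159865 to 32179855, plus strand) rose by 1.18 in PMJ2R (SE 0.0667, edgeR adjusted p = 1.14e-11, 2.26-fold), where 11.2% of tested genes had a larger log2 fold change, or 9.08% of those with transcripts over 4000 bases. It did not pass the test in ID8 (-0.20, SE 0.101, adjusted p = 0.0757), and it was called lower there with no expression filter (-0.23), with at least 5 CPM (-0.30) and without ID8 rebastinib library 3 (-0.32).

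Because so many genes were called, the response was also set against scaling and transcript length. Scaling by library totals alone moved the median of all genes to -0.60 in PMJ2R and -0.50 in ID8, and the iron genes moved down with it. Slc11a2, called lower at -0.38 in PMJ2R and -0.27 in ID8, still lay above those medians. So did Slc40a1 (0.32) and Ireb2 (0.19) in PMJ2R, which stayed called higher at a smaller size. Slc40a1 (-0.61) and Ncoa4 (-0.63) in ID8 were called lower under that scaling and lay below its median. With length and GC trends removed, Hmox1 rose by 1.81 in PMJ2R and 1.54 in ID8. The same correction left Ncoa4 at 1.20, Slc40a1 at 0.81, Ireb2 at 0.61 and Tfrc at 0.43 in PMJ2R, all called higher, and Tfrc at -0.26 in ID8, called lower.

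**Figure D2:**
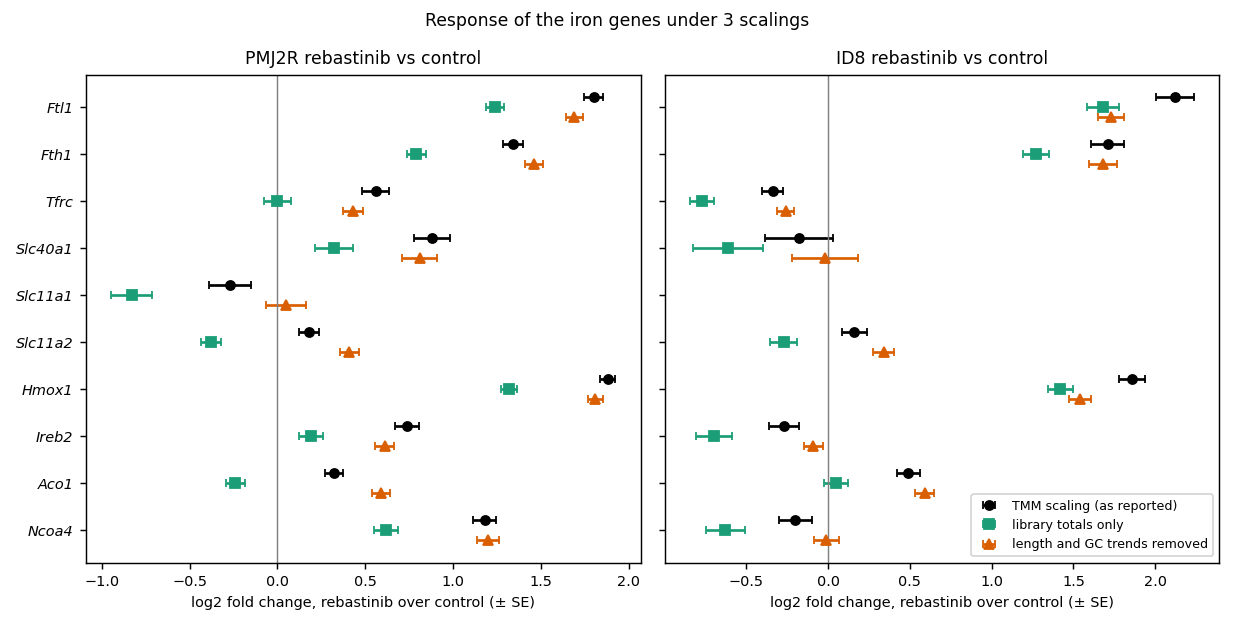
Log2 fold change of each iron gene, rebastinib over control, in PMJ2R and ID8 under TMM scaling, library totals only, and with length and GC trends removed; points are fitted values and bars their SE. Ftl1, Fth1 and Hmox1 stay above 0 under all 3 scalings in both lines, while Slc11a2 turns in both lines and Aco1 turns in PMJ2R with library totals and Slc11a1 in PMJ2R with length and GC trends removed.

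The difference of the response was tested directly, as PMJ2R minus ID8, in a contrast over all 12 libraries. Of the 10 iron genes 4 responded more upward in PMJ2R, 3 less, and 3 did not pass the test. Of 16566 tested genes 52.4% passed, 21.8% on the higher and 30.6% on the lower side, with a median difference of -0.10. Ncoa4 differed by 1.32 (SE 0.126, edgeR adjusted p = 5.53e-09) and Slc40a1 by 1.00 (SE 0.224, adjusted p = 0.000606). Ireb2 differed by 0.96 (SE 0.119, adjusted p = 3.2e-07) and Tfrc by 0.84 (SE 0.0991, adjusted p = 1.65e-07), and both were called in opposite directions in the 2 lines. The fall of Ireb2 in ID8 was lost with length and GC trends removed (-0.09), and the rise of Tfrc in PMJ2R with library totals (0.00). The differences of these 4 genes between the lines kept their call under every alternative run for this contrast. Fth1 rose less in PMJ2R, with a difference of -0.42 (SE 0.118, adjusted p = 0.00423), and that call also held under every alternative. The smaller rise of Ftl1 in PMJ2R, -0.38 (SE 0.128, adjusted p = 0.0159), was lost with RLE scaling (-0.25), DESeq2 (-0.25), a minimum of 5 CPM (-0.30) and length and GC trends removed (-0.15). That of Aco1, -0.22 (SE 0.0857, adjusted p = 0.0336), was lost under the same alternatives (-0.14 to -0.08), and without PMJ2R rebastinib library 2 or 3, PMJ2R control library 1, ID8 rebastinib library 2, or ID8 control library 1 or 2 (-0.23 to -0.20). Hmox1 (-0.03, SE 0.0917) and Slc11a2 (-0.04, SE 0.0972) did not pass, which does not show that their responses were alike. Slc11a1 had a value of -1.62 (SE 0.731, adjusted p = 0.0667) that rests on the few ID8 counts, and it was called without ID8 rebastinib library 2 (-1.99) or ID8 control library 1 (-2.54).

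The levels of the lines themselves were compared as PMJ2R over ID8, with the treated cells and the control cells fitted apart. With rebastinib 6 of the iron genes were higher in PMJ2R and 4 lower, where 82.5% of 14496 tested genes passed, 39.9% higher and 42.6% lower. In control cells 5 were higher and 5 lower, where 82.3% of 15924 passed, 39.4% higher and 42.9% lower. Such counts are not set apart from those of all genes. Slc11a1 was higher in PMJ2R by 5.40 with rebastinib (384 against 11 counts) and by 6.88 in control (880 against 6 counts). Slc40a1 was higher in PMJ2R by 3.14 with rebastinib (SE 0.169, edgeR adjusted p = 2.44e-10) and by 1.97 in control (SE 0.125, adjusted p = 1.19e-11). These were the largest differences between the lines among the 10 genes. Tfrc was higher by 1.47 with rebastinib and by 0.46 in control, and Ireb2 by 1.59 and 0.45. Ncoa4 changed sides: it was higher in PMJ2R by 0.74 with rebastinib (SE 0.101, adjusted p = 8.34e-06) and lower by -0.76 in control (SE 0.0681, adjusted p = 2.94e-09). Ferritin was lower in PMJ2R, Ftl1 by -0.45 with rebastinib and -0.24 in control and Fth1 by -0.44 and -0.19. The Ftl1 difference with rebastinib was lost with length and GC trends removed (-0.12). The control difference of Fth1 was lost with library totals (-0.11), without PMJ2R control library 1 (-0.14) and without PMJ2R control library 2 (-0.15). Aco1 was lower in PMJ2R by -0.53 with rebastinib and -0.48 in control, and Slc11a2 by -0.42 and -0.56. Hmox1 was higher by 0.28 with rebastinib, a call lost with library totals (0.12), and by 0.14 in control, a call that 9 of 14 alternatives ended.

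**Figure D3:**
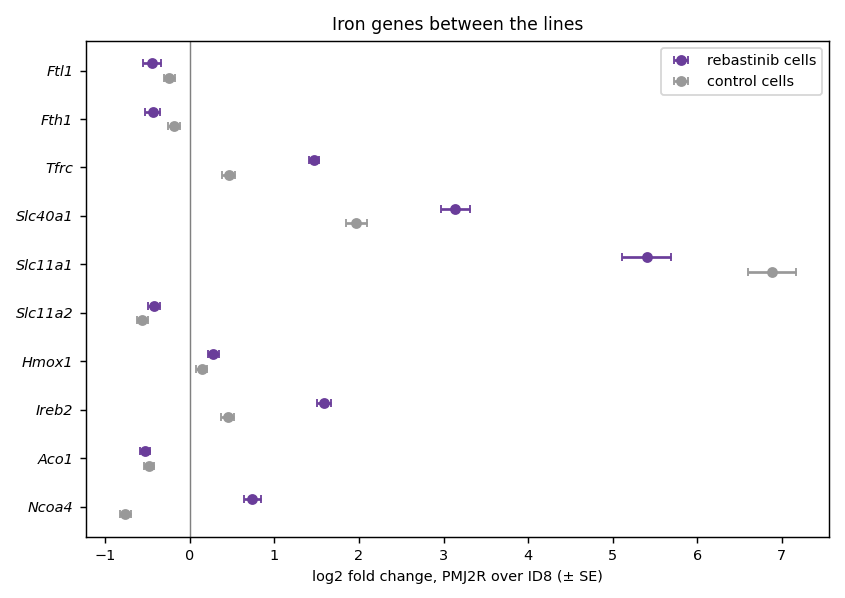
Log2 fold change of each iron gene, PMJ2R over ID8, for rebastinib cells and control cells; points are fitted values and bars their SE. Slc11a1 and Slc40a1 stand farthest to the right in both, and Ncoa4 lies at 0.74 in rebastinib cells and at -0.76 in control cells.

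Per length, ferritin was the most abundant of the iron messengers by far. TPM are shares of each library without TMM scaling, so they are given here to order the genes within a group and not as a measure of change. Mean Ftl1 was 6410 ± 219 TPM in PMJ2R with rebastinib and 3350 ± 185 TPM in PMJ2R control, and 9370 ± 975 TPM in ID8 with rebastinib and 3840 ± 106 TPM in ID8 control (SD, n = 3). Fth1 followed with 3110 ± 25.7, 2220 ± 166, 4550 ± 296 and 2460 ± 39.1 TPM in the same groups. Next came Hmox1 at 421 ± 7.66 TPM in PMJ2R with rebastinib and 375 ± 38.3 TPM in ID8 with rebastinib, with Tfrc at 214 ± 3.86 and 83.6 ± 11.6 TPM. In control cells Tfrc was at the level of Hmox1 or above it. Tfrc had 263 ± 36.9 TPM and Hmox1 208 ± 4.55 TPM in PMJ2R control, and Tfrc had 185 ± 8.28 TPM and Hmox1 183 ± 5.00 TPM in ID8 control, which do not differ beyond their spread. That closeness depends on the length used. With the longest coding transcript, mean Tfrc and Hmox1 were 237 and 165 TPM in PMJ2R control, and 166 and 145 TPM in ID8 control. Tfrc exceeded Slc40a1 per length by a mean factor of 39.9 in PMJ2R with rebastinib and 49.5 in PMJ2R control, and by 136 in ID8 with rebastinib and 141 in ID8 control. With the longest coding transcript these factors were 18.9, 23.5, 64.6 and 66.8, in the same order of groups. The remaining genes lay between 0.0796 and 68.6 TPM as group means.

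Genes that share the iron and haem pathways were counted next, against the same background shares and medians of all genes as above. Among 26 genes of iron transport and trafficking, 13 were tested in PMJ2R, of which 6 rose and 5 fell with a median of 0.17, and 18 in ID8, of which 7 rose and 9 fell with a median of -0.18. The 4 with the smallest p in PMJ2R were Fbxl5 given above, Steap3, the endosomal ferrireductase that works beside the transferrin receptor (-2.02), Herc2, a ubiquitin ligase gene (-0.83), and the iron chaperone gene Pcbp2 (0.65, and 0.64 with a call in ID8). In ID8 they all fell: Scara5, a ferritin receptor (-2.98), Herc2 (-1.35), Steap2, a metalloreductase (-1.34), and Lrp1, a receptor for haem-hemopexin among other ligands (-1.23). In PMJ2R, Scara5 and Steap2 were too low to be tested and Lrp1 had 0.02 with no call. Steap3 had 9.73 ± 0.551 CPM in PMJ2R with rebastinib and 39.5 ± 1.50 CPM in PMJ2R control, and 16.6 ± 1.36 CPM in ID8 with rebastinib and 10.3 ± 0.957 CPM in ID8 control, where it rose (0.69).

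Haem genes moved both ways. Of 20 listed, 19 were tested in PMJ2R, of which 5 rose and 8 fell with a median of -0.03, and 18 in ID8, of which 10 rose and 5 fell with a median of 0.33. Alas1, the rate-limiting enzyme of haem synthesis outside red cells, fell in both lines (-1.25 in PMJ2R and -0.94 in ID8), as did the synthesis genes Uros (-1.37 and -1.29) and Alad (-1.50 and -0.48). Cpox, a later step of synthesis, rose by 0.74 in PMJ2R and 0.69 in ID8. Cox10, which starts the conversion of haem for cytochrome oxidase, rose by 0.59 and 1.00. Among the genes acting after haem oxygenase, the biliverdin reductase gene Blvra rose in both lines (0.47 and 0.76), and Blvrb had 0.21 with no call in PMJ2R and rose in ID8 (1.20).

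Iron-sulfur cluster assembly had 9 genes that rose and 8 that fell among 24 tested in PMJ2R, with a median of 0.15, and 15 that rose and 4 that fell among 23 in ID8, with a median of 0.59. Glrx5, the mitochondrial glutaredoxin that passes clusters on, rose by 1.40 in PMJ2R and 2.13 in ID8, and the chaperone gene Hspa9 by 1.43 and 1.14. Isca2, an assembly factor for 4Fe-4S clusters, fell in both (-1.95 and -1.51). The cytosolic factor gene Narfl fell in both (-1.96 and -0.72). Ciapin1, of the cytosolic route, had -0.10 with no call in PMJ2R and rose in ID8 (1.20).

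Of 21 NRF2 and BACH1 genes other than the 10, 13 rose and 5 fell in PMJ2R with a median of 0.42, and 15 rose and 2 fell in ID8 with a median of 0.54. Nfe2l2, which encodes NRF2, rose to 124 ± 7.21 CPM in PMJ2R with rebastinib, against 92.8 ± 1.79 CPM in PMJ2R control (0.42), and to 317 ± 24.3 CPM in ID8 with rebastinib, against 193 ± 5.65 CPM in ID8 control (0.72). Keap1, which encodes the adaptor that has NRF2 degraded, fell to 24.3 ± 1.30 CPM in PMJ2R with rebastinib, against 80.4 ± 2.56 CPM in PMJ2R control (-1.73), and to 47.8 ± 4.42 CPM in ID8 with rebastinib, against 82.5 ± 1.88 CPM in ID8 control (-0.79). Bach1, the haem-sensing repressor of Hmox1 and the ferritins, rose to 112 ± 1.83 CPM in PMJ2R with rebastinib, against 34.7 ± 2.22 CPM in PMJ2R control (1.69), and to 43.8 ± 5.31 CPM in ID8 with rebastinib, against 26.4 ± 1.73 CPM in ID8 control (0.73). Among the targets, the cystine transporter gene Slc7a11 rose by 2.96 in PMJ2R and had -0.08 with no call in ID8, a tested difference of 2.99 (SE 0.113). The quinone reductase gene Nqo1 stood at 0.668 ± 0.191 CPM in PMJ2R with rebastinib and 0.548 ± 0.0177 CPM in PMJ2R control, and rose by 3.08 in ID8. Gclm, of glutathione synthesis, had 0.01 with no call in PMJ2R and rose by 1.32 in ID8, a tested difference of -1.37 (SE 0.0844). Mafk, a partner of NRF2 and BACH1, rose by 2.08 and 0.94, the peroxiredoxin gene Prdx1 by 0.88 and 1.43, and the sulfiredoxin gene Srxn1 fell (-2.41 and -1.32), each with the PMJ2R value before that of ID8.

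Of 10 genes linked to iron-dependent cell death, 9 were tested in each line. The list holds genes that favour this death and genes that protect from it, so its counts have no single direction. In PMJ2R 7 rose and none fell, with 2 not passing edgeR's test and a median of 0.72, and in ID8 4 rose and 3 fell with a median of 0.00. Gpx4, the peroxidase that protects lipids from peroxidation, rose in both lines (0.72 in PMJ2R and 1.21 in ID8). Acsl4, which builds the polyunsaturated lipids that are peroxidised, rose to 286 ± 7.81 CPM in PMJ2R with rebastinib, against 126 ± 5.52 CPM in PMJ2R control (1.18), and fell to 244 ± 12.6 CPM in ID8 with rebastinib, against 363 ± 17.3 CPM in ID8 control (-0.57). Ptgs2, a prostaglandin synthase gene used as a marker of this death, rose to 11.4 ± 2.27 CPM in PMJ2R with rebastinib, against 0.807 ± 0.0751 CPM in PMJ2R control (3.81), and fell to 60.3 ± 8.97 CPM in ID8 with rebastinib, against 233 ± 7.14 CPM in ID8 control (-1.95). Chac1, a glutathione-degrading enzyme, had -0.18 with no call in PMJ2R and fell by 4.64 in ID8, and the polyamine acetyltransferase gene Sat1 rose by 0.52 in PMJ2R and 1.23 in ID8. The mitochondrial channel genes Vdac2 (1.22 and 0.97) and Vdac3 (1.14 and 0.96) rose in PMJ2R and in ID8. The mitochondrial ferritin gene Ftmt had 0 counts in all libraries.

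**Figure D4:**
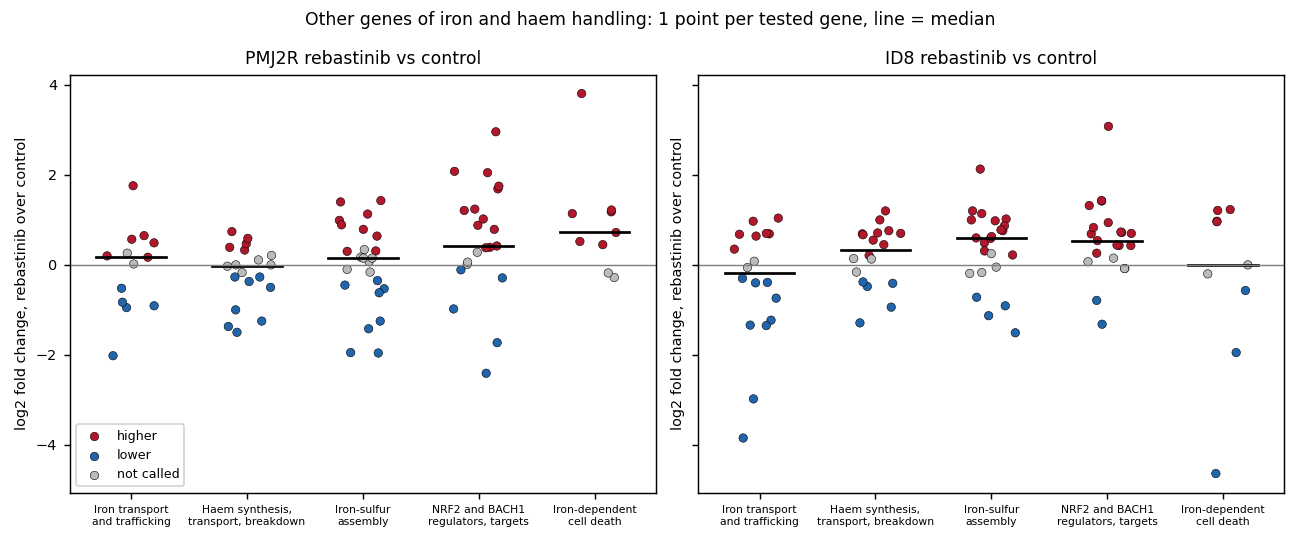
Log2 fold change, rebastinib over control, of each tested gene in the 5 pathway lists, in PMJ2R and ID8; points are genes, coloured by whether they were called higher, lower or not, and black lines are list medians. The medians run from -0.03 to 0.72 in PMJ2R and from -0.18 to 0.59 in ID8.

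Genes whose level over the 12 libraries followed Ftl1, Tfrc and Hmox1 most closely were picked by Pearson correlation of log2(CPM + 1), with CPM scaled within each line, among 8742 protein-coding genes that averaged 10 CPM or more, as a description over libraries that share line and treatment. Nearest to Ftl1 were Cox8a, a cytochrome oxidase subunit gene (r = 0.997), Atp6ap1, of the vacuolar proton pump (0.996), and Elob (0.996). Nearest to Tfrc were Ireb2 (0.989), Rbm39 (0.988) and Stard4 (0.987), and nearest to Hmox1 were Ube2j2 (0.997), Rbm14 (0.996) and Rragc (0.995). With CPM on 1 TMM scale over the 12 libraries, an alternative chosen after the data were seen, 2 of the 3 neighbours of Ftl1 and of Hmox1 and all 3 of Tfrc came out again. With CPM from library totals, 2 of the 3 neighbours of Ftl1 and of Hmox1 and 1 of the 3 of Tfrc came out again, and Ireb2 was not among them.

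Promoters of 7 of the 10 genes were found in the RefSeq table (GRCm38.p6), and their 250 bases before the start were searched on both strands for TGACNNNGC, the core bound by NRF2 with small MAF proteins, for TGANTCA and for CACGTG. Hmox1, Slc40a1 and Slc11a2 had no promoter there and were not searched. Of the 7 genes searched, only Ncoa4 held a match, TGACCTGGC, 44 to 36 bases before 1 of its 3 listed starts. That start lies inside the gene span given above and is not the gene's first base. TGACNNNGC occurred in 10.2% of 32851 promoters, TGANTCA in 6.75% and CACGTG in 6.02%. No match says only that these letters are not in this window.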

How the data were processed

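The authors deposited 1 table of whole-number, unnormalised read counts per gene for the 12 libraries. Listed without order or role in the submitters' processing notes are STAR 2.6.1c, FastQC, featureCounts, DESeq2 and the build GRCm38. The annotation used for counting, its strand setting and its treatment of multiply matching reads are not given in these sources. Groups and replicate numbers came from the sample titles. The series design also names chemotherapy arms, which are not analysed here. Symbols, lengths and transcripts came from GENCODE vM21 on GRCm38, in which 3 listed pathway symbols (Hjv, Fam96a and Fam96b) found no match.

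Each comparison was fitted with edgeR 4.0.16 in R 4.3.3 (default expression filter, TMM scaling, robust quasi-likelihood test), with Benjamini-Hochberg adjustment over all tested genes at 0.05. Within each line rebastinib was set against control, PMJ2R was compared with ID8 within each treatment, and the difference of response by an interaction contrast over 12 libraries. CPM were scaled within each line, so CPM of different lines were not put on a common scale, and fold changes between lines come from their own fits. The sums over cell type markers use library totals instead. Trends with length and GC were estimated by robust splines and entered as offsets. The genes named are the 10 members, 7 regulators and paralogues, and up to 4 genes with the smallest p per pathway list and line; a gene so named in 1 line is given in the other line too, and Blvra, Blvrb and Gpx4 were named after their values were seen. Results of 2 genes that this rule names are not reported here. Members and lists were chosen with earlier results of these data known. Simulated counts for the ID8 comparison held 62, 68 and 63 genes changed 1.5-fold, 2-fold and 4-fold among 14435. Of these, 74.2%, 80.9% and 100% were recovered, with 4.09% false calls. For the difference of response, 58, 52 and 61 genes were so changed among 14019. Recovery there was 50%, 78.8% and 90.2%, with 3.85% false calls. In the simulated counts for control cells over 14597 genes 10.4% of calls were false, so small differences between control lines are less secure. In the data, 80.4% of tested genes were called in ID8 and 52.4% in the difference of response. The simulated rates were not obtained under changes as widespread as these. Recovery and false calls under such changes were not tested. Replicate pairs differed by more than sampling noise (chi-square per degree of freedom 1.72 to 23.5), and all libraries were kept. Alternatives were RLE scaling, library totals, DESeq2 1.42.0, other filters, a replicate block, length and GC offsets, and leaving out each library.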

Additional observations from a re-analysis of the deposited data

Results flagged for a closer look

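The responses of the following genes differed between the lines by the interaction contrast (edgeR, PMJ2R minus ID8, log2 scale), where 52.4% of all tested genes did. Among the iron genes these were Ncoa4 (1.32), Slc40a1 (1.00), Ireb2 (0.96), Tfrc (0.84), Fth1 (-0.42), Ftl1 (-0.38) and Aco1 (-0.22), with their tests given above. Among the regulators they were Keap1 (-1.0, SE 0.105), which fell further in PMJ2R, Bach1 (0.91, SE 0.113) and Fbxl5 (0.66, SE 0.105), which rose further there, and Nfe2l2 (-0.36, SE 0.0918) and Hmox2 (-0.72, SE 0.106), which had the smaller response there. Among the pathway genes called in opposite directions in the lines were Ptgs2 (5.70, SE 0.206), Acsl4 (1.69, SE 0.0842) and Steap3 (-2.77, SE 0.139). The Ptgs2 value rests on low counts in PMJ2R control libraries, at 0.807 ± 0.0751 CPM (SD, n = 3). No explanation of these differences was tested.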

How the results depend on the processing

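Of 749 values of the 10 genes under alternatives, 685 kept their side of the threshold with no called direction turned, 46 lost the call, 12 gained one and 6 turned. The rises of Ftl1, Fth1 and Hmox1 in both lines and of Ncoa4, Slc40a1 and Ireb2 in PMJ2R kept their call under every alternative run. Those that turned were Slc11a2 in PMJ2R (-0.38) and in ID8 (-0.27) and Aco1 in PMJ2R (-0.24) with library totals, Slc11a2 in PMJ2R with no expression filter (-0.03), and Slc11a1 in PMJ2R with length and GC trends removed (0.05), with the replicate block also (0.05). The 9 iron genes called higher in PMJ2R were 6 with library totals and 7 with no expression filter. The number called lower there, 1, was 3 with library totals and 0 with RLE scaling, with DESeq2, with the replicate block, with length and GC trends removed and with both; leaving out a library gave 0 to 1. The 2 called lower in ID8 were 5 with library totals, 1 with length and GC trends removed, 1 with the replicate block added to that, and 1 to 3 on leaving out a library. For the difference of response, 3 became 1 with RLE scaling, with DESeq2, with at least 5 CPM, and with length and GC trends removed with or without the replicate block, and 2 to 3 on leaving out a library. Apart from the shift of all genes given for library totals, the cause was not tested. Same-numbered libraries deviated from their group means with correlations of -0.005 to 0.034 in PMJ2R and -0.225 to -0.037 in ID8. These values show no pairing by number, and as deviations from a mean of 3 libraries they cannot exclude one. The replicate block ended the calls of Slc11a1 in PMJ2R (adjusted p = 0.0512) and of Aco1 in the difference of response (adjusted p = 0.0754) and changed no other call. Slc11a1 in ID8 had too few counts for the test.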
